A study of Homo sapiens with 40 samples.

Results

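Clone 84 is a CRISPR-Cas9 edited clonal line of H1299 (human non-small cell lung cancer cells), and its RNA was compared with that of 2 clones that went through the same editing and stayed wild-type for MYO10 and JAG1. The comparison used 12 of the 40 libraries of the study, 4 of clone 84 and 4 of each of wild-type clones 38 and 75, and all genes of the count table. A gene had to differ from both wild-type clones in the same direction. The genotype label of clone 84 reads MYO10 KD, a knockdown, although its title reads MYO10 KO, a knockout, and the series design counts 1 MYO10 knockdown clone beside 2 MYO10 knockout clones. The knockout clones 98 and 99 and the unedited leader line of H1299, each with 4 libraries, serve below as further points of reference. The series title places the work in leader cells, the name used for cells that head a collectively invading group. The labels call the 4 libraries of a line biological replicates and do not say that the cultures were independent, so p-values measure the spread between these libraries. Clone 84 is 1 clone, so what the genotype does and what is particular to that clone cannot be told apart. The site of the guides is not given in the labels, and a transcript that remains shows neither presence nor loss of protein.

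MYO10 encodes myosin-X, an unconventional myosin that walks along actin bundles to the tips of filopodia, the thin protrusions with which migrating cells probe their surroundings. JAG1, the other gene edited in the study, encodes the Notch ligand Jagged-1. Several of the genes that set clone 84 apart belong to the type I interferon response, in which RNA sensors such as RIG-I or secreted interferon switch on a shared set of antiviral genes through STAT and IRF factors. Those factors bind the interferon-stimulated response element, a repeat of GAAA separated by a pair of bases. Desmosomes, a further group described below, are spot junctions that anchor the intermediate filaments of neighbouring epithelial cells, with desmoplakin (DSP) as the link to the filaments.

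The promoters below are those of 4 interferon-stimulated genes that were higher in clone 84, shown because they carry that element close to the start site. Each is the RefSeq sequence (GRCh38.p14) from 250 bases before to 50 bases after the annotated start, 5′ to 3′ on the strand of the gene, and capitals mark GAAA, any 2 bases and GAAA again, or, where this lies on the other strand, TTTC, any 2 bases and TTTC. IFI44 lies on the plus strand at chr1:78649539-78649838, IFIT1 on the plus strand at chr10:89392373-89392672, IFIT3 on the plus strand at chr10:89327747-89328046 and DDX60 on the minus strand at chr4:168318703-168319002.
IFI44: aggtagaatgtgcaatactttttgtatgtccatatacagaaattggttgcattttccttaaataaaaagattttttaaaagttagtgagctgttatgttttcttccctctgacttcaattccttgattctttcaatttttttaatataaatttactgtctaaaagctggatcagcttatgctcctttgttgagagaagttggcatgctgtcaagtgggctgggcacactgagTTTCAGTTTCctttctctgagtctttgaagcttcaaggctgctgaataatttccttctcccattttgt
IFIT1: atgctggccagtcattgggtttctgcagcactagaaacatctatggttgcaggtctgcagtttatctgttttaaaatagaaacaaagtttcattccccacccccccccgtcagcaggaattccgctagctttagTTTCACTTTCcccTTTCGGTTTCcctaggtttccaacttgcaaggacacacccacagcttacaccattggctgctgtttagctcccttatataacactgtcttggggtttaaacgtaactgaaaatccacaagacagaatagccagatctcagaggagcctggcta
IFIT3: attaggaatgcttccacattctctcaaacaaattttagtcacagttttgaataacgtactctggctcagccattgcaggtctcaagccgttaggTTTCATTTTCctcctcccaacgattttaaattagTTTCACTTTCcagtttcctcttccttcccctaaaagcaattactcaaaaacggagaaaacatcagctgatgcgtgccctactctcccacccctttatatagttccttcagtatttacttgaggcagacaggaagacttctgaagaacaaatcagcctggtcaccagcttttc
DDX60: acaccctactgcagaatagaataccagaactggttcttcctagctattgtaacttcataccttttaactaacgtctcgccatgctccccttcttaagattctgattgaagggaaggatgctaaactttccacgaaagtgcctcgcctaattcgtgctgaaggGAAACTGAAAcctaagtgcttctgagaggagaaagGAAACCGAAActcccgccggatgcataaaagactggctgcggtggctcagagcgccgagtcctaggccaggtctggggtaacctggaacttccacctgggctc
IFI44 holds 1 match, whose first base lies 18 bases before the start site, and IFIT1, IFIT3 and DDX60 hold 2 each.

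The 12 libraries held between 41033200 and 43468900 counts (to 6 digits), and levels are given as CPM (counts scaled to a common library total, the usual counts-per-million unit). Spearman correlations between cultures of the same line were 0.990 to 0.994 over the 19703 genes tested, and those cultures had a chi-square of 4.2 to 31.97 per degree of freedom, so they spread more widely than reads drawn at random. Markers of H1299 and lung epithelium stood at very unequal levels. Vimentin (VIM) was abundant, at 2200 ± 70.6 CPM in clone 84 (mean ± SD, n = 4), against 1811 ± 49.5 and 1649 ± 67.6 in clones 38 and 75. EPCAM, CDH1, NKX2-1, SFTPC, SFTPB and SCGB1A1 had at most 9 counts in any of the 12 libraries. Of 11 markers of T and B cells 7 were at 0 in clone 84, and the list summed to 0.373 to 0.754 CPM there and to 0.272 to 0.602 in the wild-type cultures. Macrophage markers, mostly CD68, summed to 83.2 to 116 and 54.1 to 104 CPM, and endothelial markers, mostly EGFL7, to 19.1 to 28.5 and 32.0 to 41.8. The fibroblast list, with COL3A1 and LUM at 0 in clone 84, summed to 0.909 to 1.46 and 0.571 to 0.881 CPM. LDHA and ZYX, abundant in most cultured cells, had at most 3 and 7 counts in these libraries, so a level near 0 is not read as absence.

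MYO10, on chromosome 5 from 16661907 to 16936288 on the minus strand (hg38), was lower in clone 84 than in either wild-type clone, and remained well above the follower line, which had 0.112 CPM. Its level was 135, 134, 191 and 139.7 CPM in cultures 1 to 4 of clone 84. It was 436, 422, 596 and 508 CPM in clone 38 and 438, 388, 536 and 401 in clone 75. The groups did not overlap, and culture 3 was the highest in each of the 3 lines. MYO10 fell by 1.63 ± 0.13 on the log2 scale (estimate ± SE; adjusted p = 4.0e-10, edgeR quasi-likelihood test), to a ratio of means 3.11 times lower. In bulk RNA, a lower level in every cell and fewer cells with the transcript cannot be told apart. Knockout clones 98 and 99 held less MYO10 than clone 84, at 63.4 ± 5.82 and 52.0 ± 5.08 CPM (n = 4 each), and clone 84 exceeded both of them (log2 1.38 ± 0.12, adjusted p = 3.0e-08, edgeR).

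Genes around MYO10 were lower too. Of the 163 other genes tested in the first 50443345 bases of chromosome 5, which spans the short arm, 56 fell in clone 84 and 6 rose, and 136 had a log2 fold change below 0. That is 34.4% called lower, where 1.87% of all genes tested were. Their median log2 fold change was -0.89, against -0.84 and -0.90 for clones 38 and 75 taken singly, 0.10 over the 733 genes further along the chromosome and 0.01 over all genes. The lower level ran past the short arm: the next 41 tested genes, from 50665931 to 60702087, had a median of -0.51 (-0.42 and -0.60 for clones 38 and 75 taken singly), where knockout clones 98 and 99 had 0.17 and 0.15. The 41 genes after them were at -0.16. MYO10's own 20 neighbours, the 10 tested genes on each side, had a median of -0.86, with 7 called lower and 2 higher. By culture, the median difference of 104 well-measured genes of this stretch from the wild-type mean was -0.90 to -0.83 in clone 84, -0.02 to 0.01 in the wild-type clones and -0.21 to -0.17 in leaders (on a scale of log2(CPM + 0.5), which compresses low genes). Knockout clones 98 and 99 stood at -0.56 to -0.47 and -0.97 to -0.84 on the same measure. The part of this stretch in the MYO10 level was not tested, and a change of MYO10 itself and a change of its surroundings cannot be told apart from these counts alone. Set against the median of those 20 neighbours in the same culture, MYO10 was lower by 0.79 to 1.31 on that scale in clone 84. Several of those neighbours were near the floor in clone 84, among them LINC02100 (0.335 CPM), BASP1-AS1 (0.363) and RETREG1-AS1 (0.473). For the same difference, MYO10 minus neighbours, the 8 wild-type cultures ran from -0.22 to 0.38. Parental cultures ran from -1.0 to -0.15 and JAG1 knockout clone 35 from -0.78 to -0.70, and the knockout clones from -2.95 to -2.30. The neighbours themselves had medians of -0.51 to -0.47 on that scale in clone 84, less low than their median log2 fold change of -0.86. The gap between MYO10 and its neighbours is therefore wider on that scale than between the log2 fold changes, which were -1.63 and -0.86. It was narrower for some better-measured neighbours: OTULIN was at -1.56, FBXL7 at -1.16, ZNF622 at -1.11 and ANKH at -1.06, while RETREG1 rose. The 21 other tested genes up to 5 Mb each side had medians of -1.15 and -1.21 for clones 38 and 75 taken singly. Of these, 14 were called lower and 2 higher. How far MYO10 fell beyond its surroundings was not tested.

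**Figure D1:**
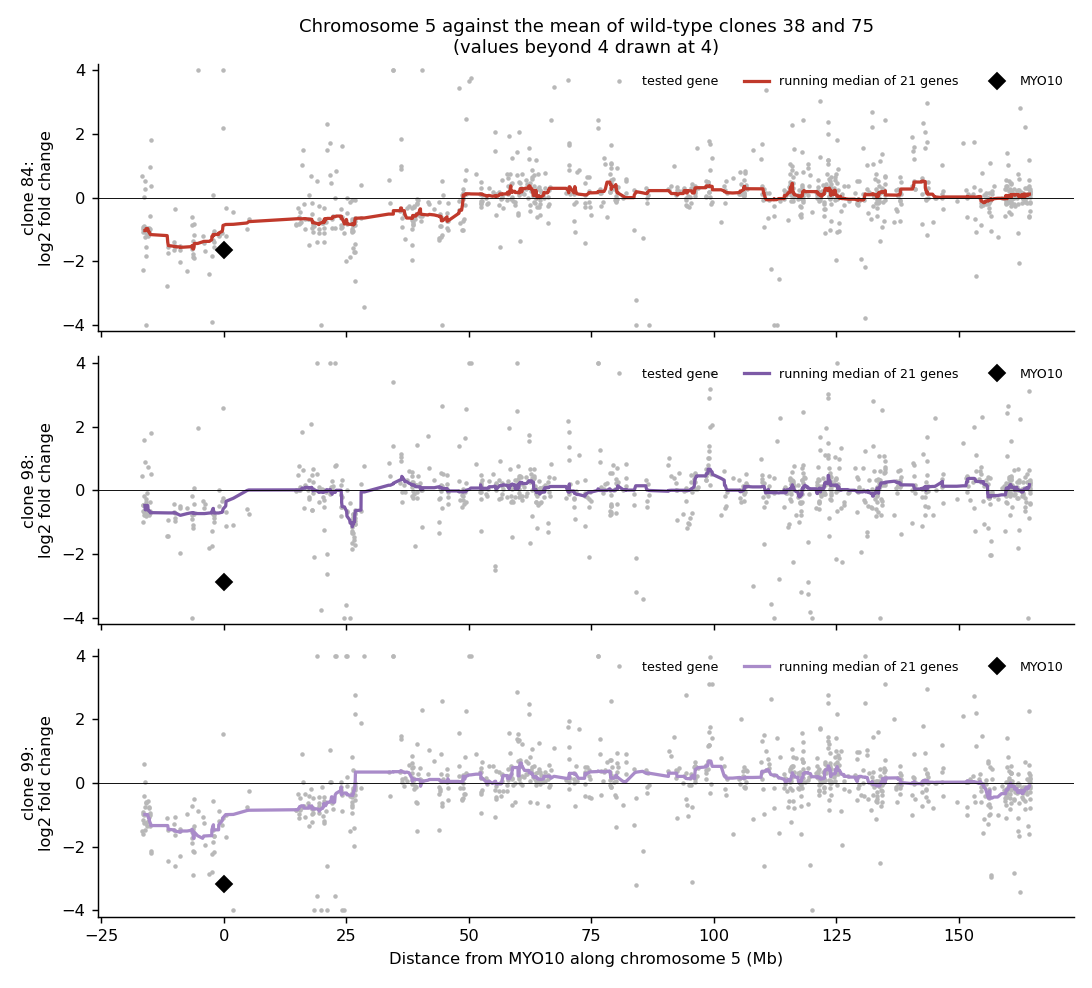
Log2 fold change against the mean of wild-type clones 38 and 75 for each tested gene of chromosome 5 (grey points), by distance from MYO10 in megabases, for clone 84, clone 98 and clone 99. The coloured line is the running median of 21 genes and the black diamond is MYO10. In clone 84 the line lies below 0 around MYO10, which is at -1.63, and in the knockout clones MYO10 lies further below the line.

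Single genes of the stretch, named here after their values were seen, show how uneven it was. The chaperonin subunit CCT5 stood at 336 ± 22.8 CPM in clone 84, 1034 ± 17.5 in clone 38 and 1020 ± 88.0 in clone 75 (log2 -1.61 ± 0.05, adjusted p = 1.6e-27, edgeR). In the knockout clones it stood at 554 and 308 CPM. BASP1, the next coding gene on the side of higher coordinates, fell by 1.20 ± 0.05 on the log2 scale, and ZNF622, on the other side, by 1.11 ± 0.05. RETREG1, an endoplasmic reticulum autophagy receptor whose gene is centred 0.254 Mb from MYO10, went the other way, at 4.12 ± 0.549 CPM in clone 84, 0.109 ± 0.030 in clone 38 and 0.179 ± 0.049 in clone 75 (log2 4.85 ± 0.21, adjusted p = 1.2e-18, edgeR), and leaders had 6.05 CPM. The delta-catenin gene CTNND2 was also higher, at 1.71 ± 0.645 CPM against 0.018 ± 0.012 and 0.063 ± 0.028.

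Clone 84 held more JAG1 (chromosome 20, 10637684 to 10673999) than the wild-type clones. Cultures 1 to 4 had 127, 119.6, 209.8 and 146 CPM, clone 38 had 39.6, 41.1, 58.5 and 37.6, and clone 75 had 40.7, 39.1, 42.3 and 39.98. All 4 cultures of clone 84 exceeded all 8 of the wild-type clones, by log2 1.83 ± 0.14 (adjusted p = 6.2e-10, edgeR). Leaders held 139 ± 18.7 CPM, and clone 84 did not pass the test against them (log2 0.11 ± 0.16, adjusted p = 0.60, edgeR). Of 34 Notch ligands, receptors and modulators tested, 4 rose and 0 fell, and JAG1 itself is 1 of the 4. The others were the receptor NOTCH3, the ubiquitin ligase DTX4 and DLK1. NOTCH3 rose from 2.19 ± 0.937 and 2.19 ± 1.30 to 9.64 ± 2.76 CPM. DLK1 lost its call without culture 4 of clone 84 (adjusted p = 0.0745, edgeR). Of 21 Notch target genes 3 rose and 0 fell, namely the transcription factor genes HES2, HES7 and GATA3, and the count was 6 when library totals alone were used for scaling and 5 without culture 3 of clone 38 or without culture 3 of clone 75. Their median was 0.29, and 5.31% of all genes tested were called higher.

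**Figure D2:**
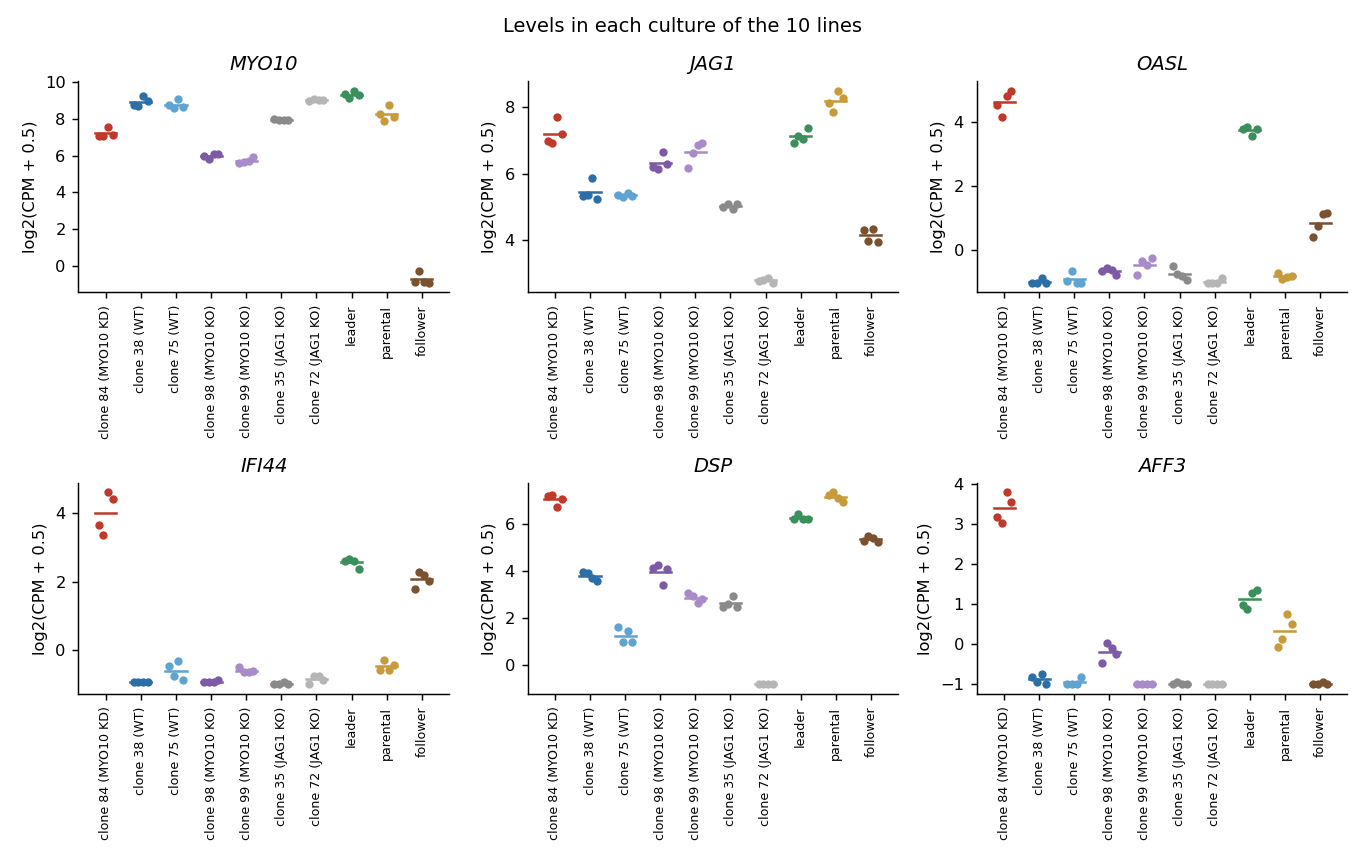
Level of 6 genes in each culture of the 10 lines, as log2(CPM + 0.5); points are cultures and short lines are line means. Clone 84 lies below both wild-type clones for MYO10 and above them for JAG1, OASL, IFI44, DSP and AFF3, and the leader means lie above the wild-type means for all 6.

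Across all genes, 1047 were higher in clone 84 than in both wild-type clones and 369 were lower, which is 5.31% and 1.87% of the 19703 tested and 7.19% together. Calls required an adjusted p under 0.05 (Benjamini-Hochberg over all genes tested, edgeR quasi-likelihood test, the larger p of both pairs of lines) with an average log2 fold change of at least 1 in size. Against clone 38 alone 1610 were higher (8.17%) and 671 lower (3.41%), 11.6% together, and against clone 75 alone 1213 (6.16%) and 563 (2.86%), 9.01% together. The 2 wild-type clones differed from each other in 861 genes (4.37%), 322 higher (1.63%) and 539 lower (2.74%) in clone 38. Without the need for a call, 2571 genes (13% of those tested) had all 4 cultures of clone 84 above all 8 wild-type cultures, and 2178 (11.1%) had them below. With the clone as the unit, counts summed per line and 3 residual degrees of freedom, 0 genes passed in edgeR and 977 had an unadjusted p under 0.05. The calls therefore describe these lines, not MYO10 knockdown clones in general.

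**Figure D3:**
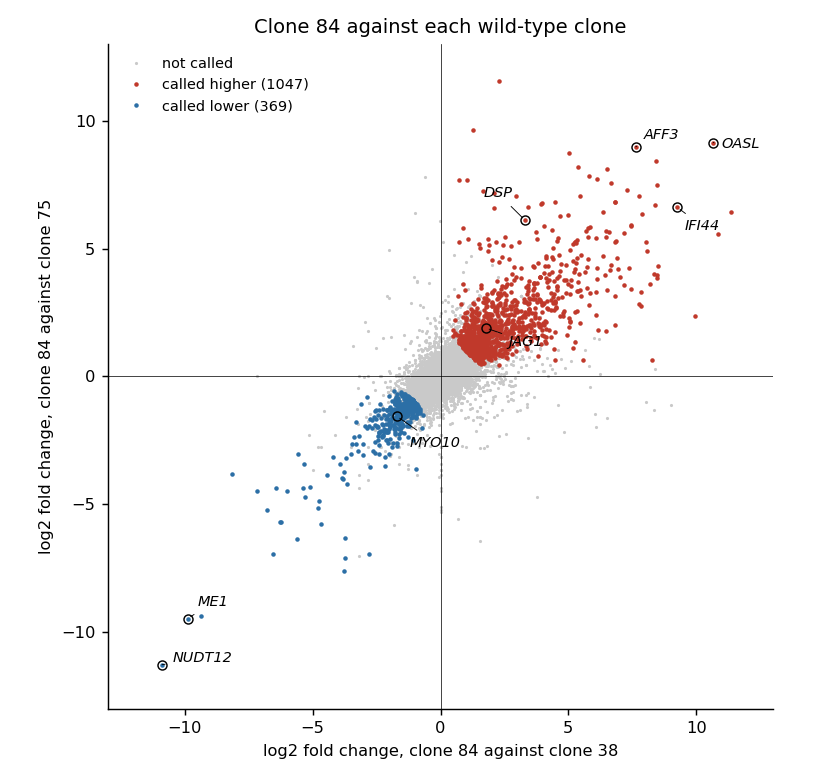
Log2 fold change of clone 84 against clone 38 (horizontal) and against clone 75 (vertical) for the 19703 genes tested; red points are the 1047 called higher, blue points the 369 called lower and grey points the rest. Called genes lie in the quadrants where both pairs share a direction, with OASL, AFF3 and IFI44 at the upper right and NUDT12 and ME1 at the lower left.

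Interferon-stimulated genes were, of the lists with at least 10 members tested, the one with the largest share called higher. Of 46 tested, 20 were higher in clone 84 and 0 lower, 43.5% where 5.31% of all genes were called higher, and their median log2 fold change was 0.96 where that of all genes was 0.01. OASL, an OAS-like protein that enhances RIG-I sensing, led the list. OASL stood at 22.6, 17.2, 27.6 and 30.9 CPM in cultures 1 to 4 of clone 84, at 0.049 CPM in culture 3 of clone 38 and 0 in the others of that clone, and at 0.022, 0.144, 0 and 0 in clone 75. These are 4269 counts in clone 84 against 2 and 7 in the wild-type clones, and the groups were far apart (log2 9.91 ± 0.29, adjusted p = 1.9e-22, edgeR). IFI44, an antiviral gene of the same response, stood at 12.1, 9.74, 23.9 and 20.8 CPM in clone 84, against 0.024 to 0.025 in clone 38 and 0.046 to 0.296 in clone 75 (log2 7.93 ± 0.25, adjusted p = 4.6e-22). For both genes cultures 3 and 4 of clone 84 were higher than cultures 1 and 2.

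The IFIT genes encode proteins that bind foreign RNA ends and are neighbours on chromosome 10. IFIT2 stood at 65.1, 54.5, 101.3 and 99.1 CPM in clone 84, at 0.716 to 0.928 in clone 38 and at 1.21 to 2.16 in clone 75 (log2 6.13 ± 0.19). IFIT1 reached 60.6 ± 11.97 CPM, from 1.53 ± 0.452 and 2.81 ± 1.04, and IFIT3 19.8 ± 4.64, from 0.133 ± 0.060 and 1.64 ± 0.162. Both promoters, printed above, carry the GAAA repeat at 2 positions. ISG15, a ubiquitin-like modifier, stood at 43.1, 40.5, 61.5 and 59.3 CPM in clone 84 and at 4.12 to 5.37 in the 8 wild-type cultures (log2 3.43 ± 0.10, adjusted p = 8.7e-23). DDX60, an RNA helicase gene induced by interferon, rose by 1.41 ± 0.15 on the log2 scale. RSAD2, which encodes the antiviral radical SAM enzyme viperin, had 122 counts in clone 84 and 1 in the wild-type clones, a ratio of 234 with an exact 95% counting interval of 42.0 to 9484. CMPK2, whose gene lies beside RSAD2, and OAS2, an RNA sensor enzyme, reached 1.69 ± 0.417 and 0.784 ± 0.388 CPM. ISG15, DDX60 and the other called members OAS1, IFI6, ISG20, HERC5, HERC6, DDX60L, SAMD9, SAMD9L, APOL1 and SLFN5 are named beyond the rule on named genes. Reads of IFIT, OAS and IFITM genes can be shared with near copies, so single values of these families are uncertain.

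Other members of the response did not pass. The 26 that were tested without a call ran from log2 -0.71 (BST2) to 3.09 (GBP2), and GBP1, GBP2 and IFI16 had line means of at most 0.289 CPM, except in followers, which had 3.12 CPM of GBP1 and 1.73 of GBP2. OAS3 stood at 50.3 CPM in clone 84 and at 67.3 and 66.3 in the wild-type clones, MX1 at 0.900 against 0.558 and 0.597, and EIF2AK2 at 103 against 119 and 94.7. Where 5.31% of all genes rose and 1.87% fell, 4 of 27 interferon ligands, receptors, sensors and signalling genes rose and 0 fell. They were the RNA sensor DDX58, which encodes RIG-I, at 68.3 ± 13.7 CPM against 13.1 ± 1.404 and 12.4 ± 0.743 (log2 2.43 ± 0.08, adjusted p = 2.5e-22), IFIH1, which encodes MDA5 (log2 1.56 ± 0.07), their regulator DHX58, and SOCS1, a feedback inhibitor of JAK signalling. The receptor genes IFNAR1 and IFNAR2 had log2 values of -0.22 and -0.53. Both lie on chromosome 21, whose 219 tested genes had a median of -0.36.

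The chemokines CXCL10 and CXCL11, interferon targets in the list of NF-kB cytokines, rose as well. CXCL11 had 175 counts in clone 84 and none in the wild-type clones, at least 114-fold higher against a floor of 3 counts over the 8 libraries. CXCL10 had 141 counts against 1, a ratio of 265 with an exact 95% counting interval of 48.6 to 10950. CCL2 fell in the same list, from 2.84 ± 0.329 and 50.05 ± 23.4 to 0.406 ± 0.229 CPM, as did PTGS2, which encodes cyclooxygenase-2. In that list 4 of 29 members rose and 2 fell, where 5.31% and 1.87% of all genes did. Of 18 antigen presentation genes 0 rose and 1 fell, beside the same shares over all genes. The gene that fell was the immunoproteasome subunit PSMB10 (log2 -1.15 ± 0.06), which lies on the long arm of chromosome 16, where its 20 neighbours had a median of -0.76.

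**Figure D4:**
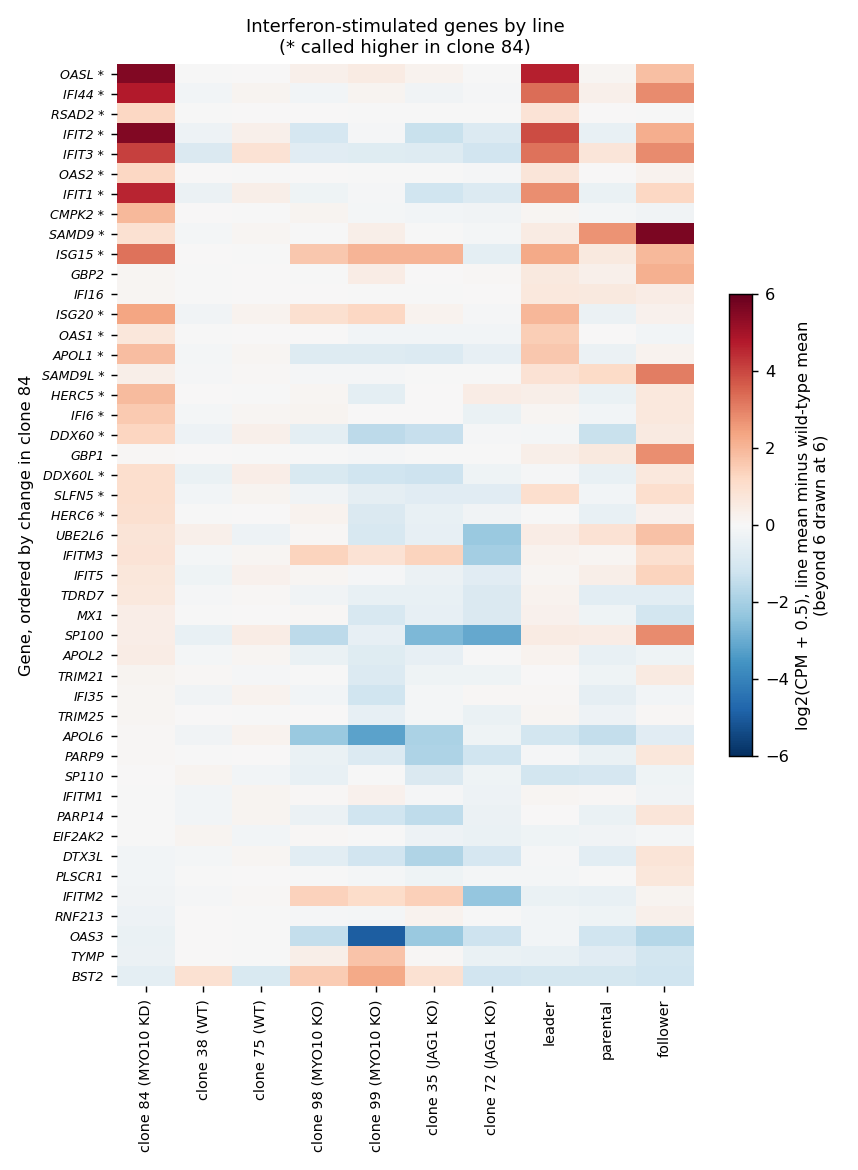
Interferon-stimulated genes (rows, ordered by log2 fold change in clone 84) by line (columns), coloured by the line mean of log2(CPM + 0.5) minus the mean of both wild-type clones; an asterisk marks the 20 genes called higher in clone 84. Red is concentrated in clone 84, leaders and followers in the upper rows, and the knockout clones are near 0 or blue for most of them.

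The median difference of the 46 genes from the wild-type mean was 0.30 to 0.69 by culture in clone 84, 0.15 to 0.38 in leaders and 0.41 to 0.63 in followers, on the log2(CPM + 0.5) scale. It was -0.12 to 0.08 in the wild-type clones, -0.06 to 0.00 in knockout clone 98 and -0.19 to -0.11 in knockout clone 99. Single members of the list departed from these medians. On the same scale ISG15 had 4.00 and 4.44 in clones 98 and 99, 2.39 and 2.38 in clones 38 and 75 and 5.67 in clone 84. OAS3 went the other way in the knockout clones, at 4.65 and 1.14, against 6.08 and 6.06 in clones 38 and 75. Tested directly, 26 of the 46 were called higher and 3 lower in clone 84 than in both knockout clones, where 5.88% of all genes were called higher and 4.17% lower. Against leaders 14 were higher and 5 lower, where 8.63% of all genes were called higher and 3.91% lower. OASL had 0.142 and 0.242 CPM in the knockout clones (log2 7.02 ± 0.22 for clone 84 against them, adjusted p = 1.5e-21, edgeR). Leaders had 12.9 CPM of OASL, and the difference of clone 84 from them did not reach the fold required (log2 0.93 ± 0.18).

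A GAAA repeat of the spacing used here was found in many promoters of the list, called or not. RefSeq promoters were at hand for 15 of the 20 called members, and 10 of them (66.7%) held GAAA, any 2 bases and GAAA on either strand, counting overlapping matches separately. Of 22 promoters of members tested but not called, 12 (54.5%) held it. The share was 4.04% for coding genes called higher, 1.12% for those called lower, 2.77% for all coding genes tested and 3.57% for all 35116 promoters of that length. RSAD2, CMPK2, OAS1, HERC6 and SAMD9L were called higher and had no match to this pattern in these 300 bases. GAAA repeats separated by a single base, as in the promoters of RSAD2 and OAS1, are not matched by it. A missing match is therefore not read as a missing response element.

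Desmosome genes moved in both directions. Of 10 tested, 3 rose and 2 fell, where 5.31% and 1.87% of all genes did. DSP stood at 147, 152, 106 and 135 CPM in cultures 1 to 4 of clone 84, at 15.3, 14.9, 12.7 and 11.6 in clone 38 and at 2.59, 1.52, 2.21 and 1.48 in clone 75. The 3 lines did not overlap, and the wild-type clones differed from each other as well (log2 2.80 ± 0.18). DSP rose by log2 4.71 ± 0.13 (adjusted p = 1.8e-18, edgeR), with leaders at 77.0 and parentals at 143 CPM. PERP, a tetraspan desmosome protein, rose from 67.1 ± 5.45 and 60.4 ± 4.50 to 171 ± 3.07 CPM, and the plakophilin PKP2 from 36.5 ± 2.38 and 14.6 ± 1.73 to 50.7 ± 8.19. The desmosomal cadherins fell: DSC2 from 5.70 ± 0.620 and 5.53 ± 0.875 to 0.407 ± 0.249 CPM (log2 -3.77 ± 0.18), and DSG2 from 33.3 ± 1.70 and 29.7 ± 2.85 to 13.9 ± 3.67. Of 25 keratin, tight junction and adhesion genes 5 rose and 3 fell. KRT18, a simple epithelial keratin, rose to 365 ± 70.7 CPM from 129 ± 16.7 and 165 ± 30.1, and SPINT2 and LSR rose at lower levels. ESRP2, an epithelial splicing factor, fell by 1.38 ± 0.34 on the log2 scale and lies in the chromosome 16 stretch whose neighbours had a median of -0.72.

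AFF3, a nuclear protein related to the super elongation complex, was near 0 in both wild-type clones. Its level was 8.62, 7.71, 13.4 and 11.3 CPM in clone 84, at most 0.099 in clone 38 and at most 0.070 in clone 75, or 1780 counts against 8 and 3 (log2 8.31 ± 0.31, adjusted p = 3.0e-18, edgeR). Leaders had 1.70 CPM, knockout clone 98 had 0.382 and clone 99 had none. Of the 16 genes of the AFF family and super elongation complex tested, AFF3 was the 1 called. That is 6.25% called higher, where 5.31% of all genes were.

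The other genes with the largest rises had low levels in the wild-type clones, at most 0.741 CPM (MGAT4A) in any wild-type culture for the genes of this paragraph. BACE2, an aspartic protease, stood at 14.2 to 18.0 CPM in clone 84 and at most at 0.179 in the wild-type cultures (log2 7.97 ± 0.18). SHROOM3, which organises apical actomyosin, stood at 11.1 ± 1.34 CPM against 0.049 ± 0.020 and 0.081 ± 0.031, and knockout clones 98 and 99 had 16.96 and 9.93 while leaders had 0.018. AFAP1L2, an actin filament associated protein, rose to 5.09 ± 0.805 CPM (log2 7.55 ± 0.28). Levels of 7.80 ± 1.31 CPM were found for VIPR1, the receptor of vasoactive intestinal peptide, and 5.56 ± 2.31 for FLRT2, a guidance and adhesion protein, both without a count in clone 38. FLRT2 reached 112 and 35.7 CPM in the knockout clones and was lower in clone 84 than in both (log2 -3.51 ± 0.24). NMNAT2, an axonal NAD synthase, rose by log2 6.69 ± 0.27, BMP7 by 6.82 ± 0.23, SYTL5 by 5.26 ± 0.27, DOCK11 by 5.01 ± 0.19, MGAT4A by 4.68 ± 0.14 and TTC9 by 5.18 ± 0.16. BMP7 and SYTL5 were higher still in leaders, at 37.4 and 54.0 CPM, than the 7.28 and 7.04 of clone 84.

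Among the genes that fell furthest, NUDT12, a peroxisomal nudix hydrolase of nicotinamide nucleotides, had 0 counts in all 4 cultures of clone 84, while clone 38 had 4.91 to 6.32 CPM and clone 75 had 6.26 to 8.37. That is at least 375-fold lower, against a floor of 3 counts over the 4 libraries. NUDT12 lies on the long arm of chromosome 5, where its 20 neighbours had a median of 0.23, and the knockout clones and leaders had means of 5.76 to 6.21 CPM. ME1, the cytosolic malic enzyme, had 1 count in clone 84 against 1366 and 1080, a ratio of 1277 with an exact 95% counting interval of 225 to 49503. PPARGC1A, the coactivator of mitochondrial biogenesis PGC-1 alpha, had 1 count against 943 and 1015, a ratio of 1015 with an interval of 179.8 to 39631. Knockout clone 98 and leaders were near 0 for PPARGC1A too, at 0 and 0.044 CPM, and knockout clone 98 had 0.098 CPM of ME1. NRIP1, a nuclear receptor corepressor, fell from 28.1 ± 1.74 and 22.97 ± 5.15 to 3.01 ± 0.774 CPM. The purine receptor P2RY1, the atypical small GTPase RND3 and the ubiquitin ligase-like gene LONRF3 fell by 3.04 ± 0.14, 2.97 ± 0.28 and 2.33 ± 0.18 on the log2 scale. PTX3, a secreted pentraxin, fell by 2.22 ± 0.33 and ARHGAP4, a GTPase activating protein, by 1.70 ± 0.11.

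Several of the genes that fell lie where neighbours were low as well. TRIO, a guanine nucleotide exchange factor, stood at 116, 111, 107 and 100.2 CPM in clone 84, at 384 to 461 in clone 38 and at 322 to 411 in clone 75 (log2 -1.84 ± 0.09), and its 20 neighbours had a median of -1.27. DNAH5, an axonemal dynein chain, fell by 2.40 ± 0.12 with neighbours at -1.35, and ANKRD33B by 1.88 ± 0.19 with neighbours at -1.54. GHR, the growth hormone receptor, fell by 1.86 ± 0.13 with neighbours at -0.84. These 4 lie on the short arm of chromosome 5. DPEP3, a dipeptidase, lies on the long arm of chromosome 16 and fell by 2.21 ± 0.16 with neighbours at -0.78. Of the 364 genes called lower that have a position, 57 (15.7%) lie in that part of chromosome 5, MYO10 included, which holds 0.844% of the genes tested with a position.

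The lists of this paragraph and the next had 11.8% (HOX genes) to 36.7% (matrix proteases and inhibitors) of tested members called higher. Over all genes, 5.31% were called higher and 1.87% lower. The integrin and the YAP and TAZ lists, given further below, had 7.14% and 6.90%. Some lists also differed between the wild-type clones, where 1.63% of all genes were higher in clone 38 and 2.74% lower. Such calls numbered 3 and 3 for HOX genes, 5 and 6 for matrix genes and 2 and 5 for neuronal genes. WNT genes had 3 and 2, developmental factors 2 and 4, growth factors 2 and 3 and TGF-beta and BMP genes 1 and 4. Mesenchymal genes had 1 and 1, and matrix proteases 0 and 1. In clone 84, 15 of 60 collagens and other matrix genes rose and 4 fell, with a median of 0.42. Thrombospondin-1 (THBS1) stood at 413, 340, 242 and 235 CPM in clone 84, at 42.1 to 67.97 in clone 38 and at 11.1 to 12.9 in clone 75 (log2 3.53 ± 0.28), and fibronectin (FN1) reached 318 ± 19.4 CPM from 89.1 ± 18.6 and 34.0 ± 8.52. COL5A1 rose, and the fibrillin FBN2 and the leukocyte integrin chain ITGB2 fell. Of 30 matrix proteases and inhibitors 11 rose and 2 fell, and the counts were 7 and 1 when the 3 lines were fitted alone. Those that fell numbered 1 without culture 4 of clone 84 or without culture 4 of clone 38. MMP1, an interstitial collagenase, varied widely between the cultures of clone 84 (9.61 ± 12.4 CPM against 0.403 ± 0.288 and 0.225 ± 0.135). Of 25 mesenchymal genes 5 rose and 1 fell, the last being caldesmon CALD1 (log2 -1.31 ± 0.20).

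**Figure D5:**
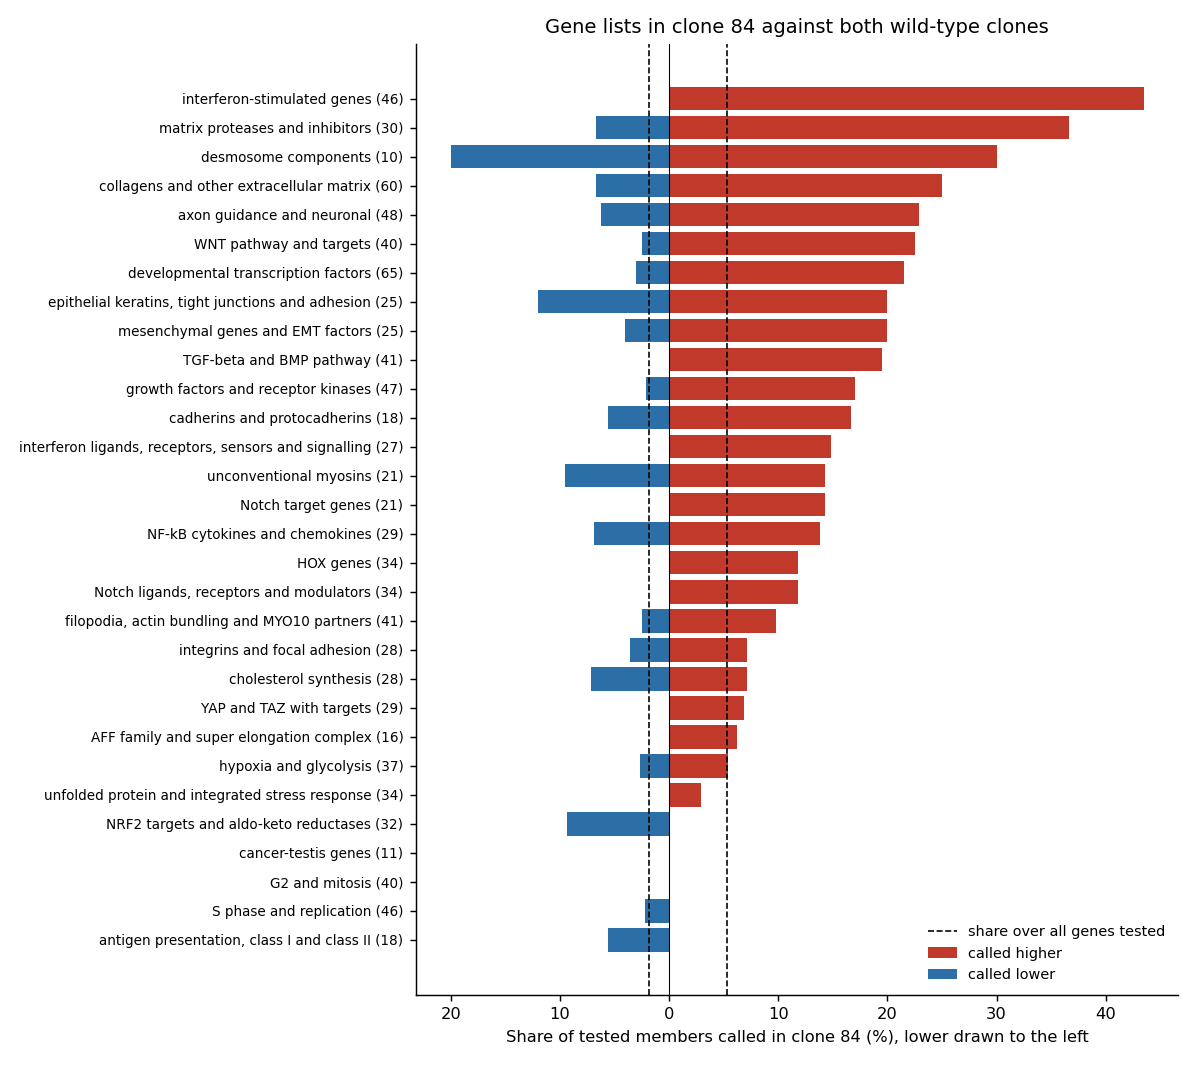
Share of tested members called higher (red, to the right) or lower (blue, to the left) in clone 84 against both wild-type clones for lists with at least 10 members tested, whose number is in brackets; 1 such list is not shown. Dashed lines are the shares over all genes tested, 5.31% higher and 1.87% lower, and interferon-stimulated genes have the longest bar to the right at 43.5%.

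Of 40 WNT pathway genes and targets 9 rose (22.5%, where 5.31% of all genes did) and 1 fell, those that rose including the ligand WNT9A, the receptor FZD8 and RNF43, a ubiquitin ligase that removes WNT receptors, at 2.75 ± 1.95 CPM against 0.024 ± 0.028 and 0.012 ± 0.014. Of 41 TGF-beta and BMP genes 8 rose and 0 fell, with the receptor TGFBR2 at 48.2 ± 9.61 CPM against 9.55 ± 1.65 and 15.7 ± 0.819, the latency protein LTBP1 (log2 3.00 ± 0.14) and the BMP antagonist NOG. Of 47 growth factors and receptor kinases 8 rose and 1 fell. IGF2, a fetal growth factor, reached 58.96 ± 18.7 CPM from 0.603 ± 0.268 and 3.26 ± 0.826, and leaders had 55.3. Axon guidance and neuronal genes rose in 11 of 48 and fell in 3, with NRP1, a co-receptor of semaphorins and VEGF, at 15.4 ± 0.755 CPM against 1.38 ± 0.286 and 1.82 ± 0.523 and SLIT2 lower (log2 -2.66 ± 0.54). Of 65 developmental transcription factors 14 rose and 2 fell, SOX4 among the first (log2 2.16 ± 0.15), and of 34 HOX genes 4 rose and 0 fell.

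Of 41 genes of filopodia, actin bundling and MYO10 partners 4 rose (9.76%, where 5.31% of all genes did) and 1 fell, the last being MYO10, and the median was -0.02. EPS8, an actin capping and bundling protein, rose from 89.6 ± 11.7 and 87.4 ± 9.21 to 200.3 ± 26.4 CPM, and leaders had 237. CDC42EP3, a Cdc42 effector, rose to 129 ± 15.1 CPM from 36.1 ± 1.99 and 45.6 ± 4.87, the netrin receptor NEO1, a cargo of myosin-X, by log2 1.42 ± 0.09 and MTSS1, a membrane-bending protein, by 3.93 ± 0.25. Of 21 unconventional myosins 3 rose and 2 fell, MYO10 among those that fell, and MYO5B had the highest level of those that rose, at 5.99 ± 1.82 CPM. The other two, MYO1D and MYO5C, were both lost without culture 2 of clone 75 (adjusted p = 0.0528 and 0.0851, edgeR), which leaves 1 that rose.

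Proliferation and metabolic lists held few calls. Of 46 S phase genes 0 rose and 1 fell, the helicase subunit MCM4 (log2 -1.08 ± 0.05), and the list's median was -0.30, with 24 members below all wild-type cultures in every culture of clone 84, where 11.1% of all genes were. Of 40 G2 and mitosis genes 0 were called, with a median of -0.24 and 20 such members, and 1 was called lower without culture 2 of clone 84. Of 28 cholesterol synthesis genes 2 rose and 2 fell, with a median of -0.35. HMGCS1, the synthase that precedes HMG-CoA reductase, fell by 1.69 ± 0.17, on the short arm of chromosome 5 with neighbours at -0.83. INSIG1, which retains the sterol sensor in the endoplasmic reticulum, fell too, and lost its call without culture 4 of clone 84 (log2 -0.95) and with the 3 lines fitted alone (adjusted p = 0.0949, edgeR), which leaves 1 that fell. Of 32 NRF2 targets 0 rose and 3 fell, ME1, NQO1 and ABCC3, and NQO1 (log2 -1.02 ± 0.10) lies in the chromosome 16 stretch with neighbours at -0.61. NQO1 and ABCC3 both dropped under the threshold with library totals alone, without culture 1 of clone 84 and without its culture 2, and ABCC3 also without culture 3 of clone 38. In the same list 1 gene was called higher without culture 1, 2 or 4 of clone 84. Of 11 cancer-testis genes 0 were called. Calls higher and lower numbered 3 and 1 of 18 cadherins, 2 and 1 of 28 integrin and focal adhesion genes, 2 and 0 of 29 YAP and TAZ genes, 2 and 1 of 37 hypoxia genes and 1 and 0 of 34 stress response genes, where 5.31% and 1.87% of all genes were called. The stress response call, the pseudokinase TRIB3, was lost without culture 3 of clone 84 (log2 0.72), and without cultures 1, 2 and 4 that list had 3, 4 and 2 calls higher. It had 2 without culture 3 or 4 of clone 38 and without culture 3 of clone 75.

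Against both MYO10 knockout clones, 1159 genes were higher in clone 84 and 821 lower, which is 10% of the genes tested. Against leaders, 1701 were higher and 770 lower, or 12.5%. These comparisons share the libraries of clone 84 with the one above, so values are given side by side and their overlap is not read. AFF3, IFIT2, MTSS1 and FGFR2 were called higher in clone 84 than in both knockout clones (log2 8.24, 7.03, 3.61 and 7.41). FGFR2, a fibroblast growth factor receptor, stood at 2.25 ± 0.733 CPM in clone 84 and at 0.017 and 0.006 in the knockout clones. NOTCH3, TGFBR2 and GATA3 were higher in both knockout clones than in clone 84 by their means, at 25.3, 75.9 and 28.2 CPM in clone 98, and the difference was called for NOTCH3 (log2 -1.34) and GATA3 (log2 -2.21). SHROOM3, TRIO and DNAH5 did not differ by a call between clone 84 and the knockout clones (log2 -0.23, -0.09 and -0.07). Against leaders, AMOTL1 was far higher in clone 84 (log2 5.09), and FOXF1, at 28.5 CPM in leaders and 0.614 in clone 84, was far lower (log2 -5.53).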

How the data were processed

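RNA of 40 libraries (10 lines, 4 libraries each) was sequenced, and 12 of them, of clone 84 and wild-type clones 38 and 75, make the main comparison. Per the submitters' processing notes, the build was hg38 and the tools were STAR 2.7.11b, HTSeq 2.0.5, fastp 0.23.4, MultiQC 1.24.1 and FastQC 0.12.0. The strand setting and annotation release are not given in the sources used here, so reads of overlapping antisense genes cannot be told apart. The authors deposited raw counts per gene symbol, whole numbers with no normalization, for 59251 symbols, of which 17548 had no count.

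With R 4.3.3 and edgeR 4.0.16 (limma 3.58.1), genes passing filterByExpr by line (minimum count 10) were kept: 19703 genes with 99.96% of all counts. Scaling used TMM (trimmed mean of M values), with factors of 0.978 to 1.06 in the 12 libraries. All 40 libraries entered 1 robust quasi-likelihood model, each line having its own coefficient (30 residual degrees of freedom, common biological coefficient of variation 8.62%). A gene's p was the larger of its p against clones 38 and 75, or 1 where directions differed, adjusted by Benjamini-Hochberg over all genes tested. The fold change averages both pairs, and its standard error covers the spread between cultures and leaves out the spread between clones. Adjusted p-values of genes come from this edgeR test. The script was tested on simulated data. Positions and promoters are RefSeq's (GRCh38.p14), 19434 of the tested genes being matched. Stretches hold about 40 neighbouring tested genes. Alternatives, DESeq2 1.42.0 among them, are given at the end. Exact intervals and floors of 3 counts cover counting error only (no molecular identifiers were used as far as the labels say).

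The genes compared, the 36 gene lists and the markers were chosen with earlier results of these data known, and no list was tested as a set. Some genes and 1 list are not reported here. Named genes are MYO10, JAG1, OASL, IFI44, DSP and AFF3; the 15 highest and 15 lowest calls, ranked by the smaller change of both pairs, whose higher group averaged 5 CPM or more (the lower wild-type clone for genes that fell) and leaving out clone-based, non-coding, antisense and pseudogene entries; and up to 8 called members of each list. Any other gene was chosen after its values were seen, and members that did not pass are given for their range. Figures used matplotlib 3.10.9.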

Additional observations from a re-analysis of the deposited data

Results flagged for a closer look

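In 99 groups of 4 cultures (33 genes in 3 lines), 14 had a culture whose gap to the nearest of the others took up more of the group's range than Dixon's 95% critical value allows. Chance alone flags about 1 group in 20, and several groups are of 0 or 1 counts.

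Culture 3 of clone 84 had the highest MYO10 level, 190.5 CPM, where the others had 134 to 139.7. Culture 3 of clone 38 had the highest JAG1 level, 58.5 CPM, where the others had 37.6 to 41.1. In clone 75, culture 4 was the highest for PTX3 (33.9 CPM, others 12.7 to 15.5) and for ANKRD33B (147.8 CPM, others 87.6 to 92.9). Culture 1 of clone 75 was the highest for DPEP3 (32.95 CPM, others 26.3 to 27.1) and for GHR (5.87 CPM, others 4.99 to 5.08), and the lowest for DOCK11 (0.112 CPM, others 0.182 to 0.192). Culture 2 of clone 75 was the lowest for ARHGAP4 (21.1 CPM, others 24.6 to 25.2) and its culture 4 for MGAT4A (0.278 CPM, others 0.524 to 0.558).

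The remaining flags rest on few counts. OASL stood at 0.049 CPM in culture 3 of clone 38 and 0.144 in culture 2 of clone 75, and AFF3 at 0.070 in culture 4 of clone 75. ME1 stood at 0.023 CPM in culture 3 of clone 84 and PPARGC1A at 0.023 in its culture 4, a single count each.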

How the results depend on the processing

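Of the results in this comparison none changed direction. For the genes called against both wild-type clones, leaving out 1 culture gave 1348 to 1420 calls in all (972 to 1058 higher, 351 to 386 lower). No fold threshold gave 5664 (3055 higher, 2609 lower), a log2 threshold of 2 gave 575 (483 and 92), and the clone as the unit gave 0, 0 and 0. MYO10 and JAG1 kept log2 values of -1.64 and 1.83 with the clone as the unit, at adjusted p of 0.94 and 1.0 (over all 21 alternatives, 3.5e-158 to 0.94 and 7.7e-158 to 1.0), and leaving out 1 culture gave -1.78 to -1.58 and 1.62 to 1.92. Against the knockout clones, leaving out 1 culture gave 1927 to 1980 calls (1102 to 1155 higher, 798 to 855 lower). Against leaders it gave 2406 to 2514 (1604 to 1728, 750 to 829), and between the wild-type clones 800 to 894 (291 to 334, 497 to 568). Requiring 1 CPM in 4 libraries, which tests fewer genes, gave 1572 against leaders (1127 and 445) and 566 between the wild-type clones (201 higher). Averaging the reference clones gave 1945 calls, DESeq2 1400 and the 3 lines alone 1200. The labels give cultures of the same number no shared origin, and the numbers were not taken to pair the samples: deviations of same-numbered cultures correlated by -0.04 to 0.20, over 0.1 in 3 of 12 libraries' pairings, and 7 of 12 correlated best with their own number, a hint from the data and not from the design. With the replicate block 1419 genes were called, and BMP4 and WNT7B, members of the lists above, lost their calls (adjusted p = 0.0519 and 0.0537, edgeR). Other settings removed these calls too: BMP4 lost its call in 13 of 19 alternatives and WNT7B in 9 of 21. KRT81 and TJP3, of the keratin, tight junction and adhesion list, lost theirs in 12 of 20 and 10 of 21. These numbers include the clone as the unit, where every call was lost. With library totals alone the median of all genes was 0.06. Requiring 1 CPM in 4 libraries left 2 of the 4 HOX genes and 2 of the 4 NF-kB cytokines called higher; that filter and the 3 lines alone each left 1 called lower of the 3 keratin and junction genes, of the 2 NF-kB cytokines and of the 2 developmental factors. Averaging the wild-type clones gave 5 neuronal genes called lower. The causes were not tested. At the depth of these libraries, genes under 0.1 CPM rest on a handful of reads and their folds are imprecise.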

Other observations

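Other stretches of about 40 neighbouring tested genes also had a median away from 0 in clone 84 against both wild-type clones. On chromosome 16, 4 consecutive stretches from 47154391 to 69743918 had medians of -0.64, -0.68, -0.68 and -0.68, where knockout clones 98 and 99 had -0.05 to 0.02. They hold PSMB10, DPEP3, NQO1 and ESRP2. The last stretch of chromosome 21 was at -0.49 and the last of chromosome 10 at -0.55, and chromosome 21 as a whole had a median of -0.36 over 219 genes. Parts of chromosome 19 were higher, up to 0.58 over 40 genes from 47757036 to 48993309, where the knockout clones had 0.43 and 0.78, and the 1333 genes of chromosome 19 had a median of 0.25. The stretch of that chromosome from 36114967 to 37543333 was lower, at -0.57, where the knockout clones had -0.64 and -0.51. On chromosome 8, 3 stretches were at -0.47, -0.50 and -0.49, 1 on chromosome 3 was at -0.48 and 1 on chromosome 12 at 0.48. The DNA copy number of the lines was not analysed here.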
